A study of Sus scrofa with 6 samples.

Results

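A set of 10 genes of TGF-beta and activin signalling, taken by name, were followed from porcine embryonic fibroblasts (PEFs) into the induced pluripotent stem cells made from them (piPSCs). They are 10 of the 18007 genes in the deposited table, 4 coding for ligands or a ligand subunit (TGFB1, TGFB2, TGFB3, INHBA), 2 for receptors (TGFBR1, TGFBR2), 3 for signal carriers or inhibitors inside the cell (SMAD3, SMAD7, SKIL) and 1 for a matrix protein named for its induction by TGF-beta (TGFBI). Of these, 9 were found by symbol, and SMAD7, which the table lists by identifier only, through a list pairing identifiers with symbols. The fibroblasts, PEF5, PEF7 and PEF8, were grown from the ear tips of embryos of a Large White and Meishan cross at embryonic day 90. Each was infected with lentiviruses carrying OCT4, SOX2, KLF4 and c-MYC under a doxycycline-inducible promoter and then cultured in LF2i medium. Colonies picked from each became piPSC5, piPSC7 or piPSC8, grown on mouse feeder cells. The study describes these piPSC lines as dependent on doxycycline and as incompletely reprogrammed. Every line gave 1 poly-A RNA-seq library, so the 3 libraries of a group are different lines, and the spread between them includes the difference between embryos. The comparison asks how the transcripts of this pathway differ between a fibroblast and the reprogrammed line derived from it.

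TGF-beta ligands are secreted in a latent form, bound to the matrix, and must be released before they can bind. Active ligand brings the type II receptor TGFBR2 together with the type I receptor TGFBR1, which phosphorylates SMAD2 and SMAD3, and these enter the nucleus with SMAD4. Activins use other type II and type I receptors to reach the same SMADs. In fibroblasts the pathway drives matrix production, and in cultured pluripotent cells activin or NODAL signalling through the same SMADs is known to sustain self-renewal in some species and states.

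Levels are given in FPKM, fragments scaled to transcript length and library total, which can be compared between genes. Differences are log2 ratios of (FPKM + 1), piPSC minus PEF, with the standard error (SE) and an adjusted p from limma over 12428 genes with a mean of at least 0.5 FPKM, and a gene was called at an adjusted p under 0.05 with at least a 2-fold change. The added 1 makes these ratios smaller than the plain ratio of FPKM for weakly expressed genes. Library totals ran from 11010629 to 17836510 fragments. Fibroblast markers summed to between 4481 and 5362 FPKM in the PEFs and to between 207 and 371 FPKM in the piPSCs, and 7 of 7 were called lower there. Of 9 pluripotency markers, 6 were in the table, with sums between 0.0703 and 0.202 FPKM in the PEFs and between 2.87 and 9.16 in the piPSCs. CDH1, EPCAM, SALL4 and ESRRB stayed at or near 0 in the piPSC libraries, and SOX2 was at 3.01 FPKM in piPSC5, 2.49 in piPSC7 and 0.129 in piPSC8. LIN28B was above its PEF line in each, at 2.51, 0.281 and 8.90 FPKM in piPSC5, piPSC7 and piPSC8 against at most 0.0367 in the PEFs. The label of these lines thus rests here on few transcripts. The study describes the fibroblast lines as male, yet the Y-linked gene DDX3Y had 0 fragments in both libraries of lines 5 and 7. It had 3439 fragments in PEF8 and 4207 in piPSC8, and counts of genes are therefore also given without line 8. In bulk RNA, fewer cells of a type and less RNA per cell cannot be told apart.

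All 10 genes passed the filter on low values, and 5 of them were called lower in piPSCs: TGFB2, INHBA, TGFBR2, SMAD7 and TGFBI. Of all genes tested, 16.7% were called lower. None of the 10 was called higher by limma or by its voom method on fragments, 0 had an unadjusted p under 0.05 in that direction, and of all genes tested 20.2% were called higher. Counting those with an adjusted p under 0.05 at any fold gave 7 lower, against 21.5% of all genes. In 7 of the 10, every piPSC library was below every PEF library, which held for 26.8% of the genes tested. Set against its own PEF line, 5 genes were at least 2-fold lower in all 3 piPSC lines, against 11.9% of all genes, and 29 of the 30 single ratios lay below 0. Of all genes tested, 42.2%, 40.9% and 47.4% had a ratio below 0 in lines 5, 7 and 8. The median difference of the 10 genes was -1.55, beside 0.20 for all genes tested. When libraries were scaled by their median ratio these medians were -1.78 and -0.01, and with libraries rescaled to equal sums -2.03 and -0.06. Among all calls, 54.8% were higher in piPSCs, and these scalings lowered that share to 42.6% and 41.4%. Without line 8, 5 of the 10 were again called lower, with TGFBR1 called in place of TGFBI, against 15.8% of all genes. None was called higher there, against 20.1%.

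**Figure D1:**
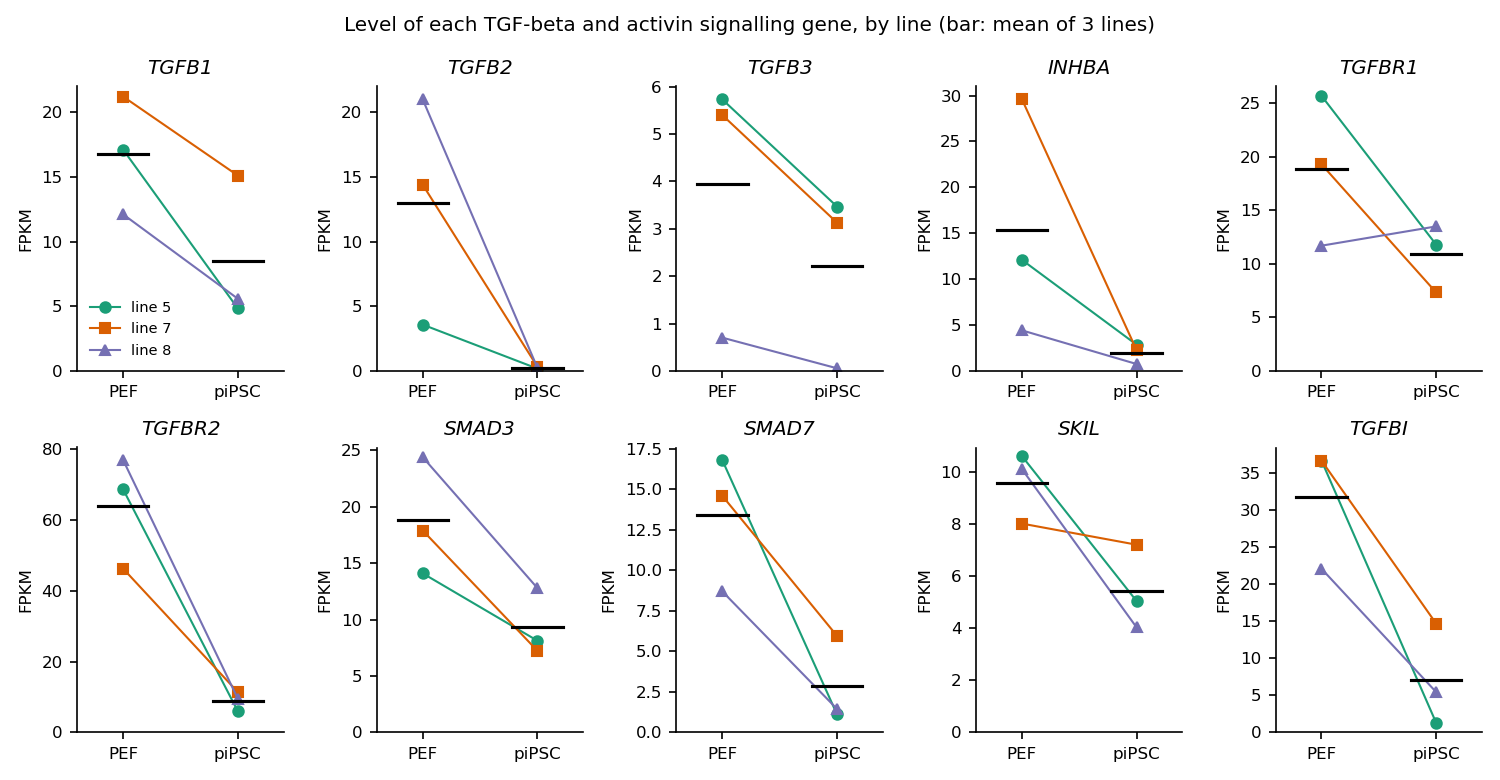
FPKM of the 10 genes in each library, each gene on its own linear axis from 0, with a coloured line joining each PEF line to the piPSC line made from it and a black bar at the mean of the group. TGFBR1 in line 8 is the single rising line of 30, and TGFB2 drops to near 0 in all 3 lines.

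Among the ligands, TGFB2 (ENSSSCG00000010816, chr10:8305539-8405771 on Sscrofa11.1) was called lower in piPSCs. It had 3.58 FPKM in PEF5, 14.4 in PEF7 and 21.0 in PEF8, while piPSC5, piPSC7 and piPSC8 had 0.179, 0.328 and 0.245. The groups did not overlap, and the fibroblast lines themselves differed 5.88-fold while the piPSC lines were all near 0. These values stand for 213, 802 and 1063 fragments in the PEFs and for 9, 13 and 9 in the piPSCs. The mean of 13.0 ± 8.81 FPKM (SD, n = 3) in PEFs was 51.9 times that of 0.251 ± 0.0744 (SD, n = 3) in piPSCs. The difference was -3.21 (SE 0.56, adjusted p = 0.00422). By line, TGFB2 was 20-fold lower in piPSC5 (95% exact counting interval 10.3 to 44.3), 43.9-fold in piPSC7 (25.5 to 82.8) and 85.9-fold in piPSC8 (45.1 to 188). These intervals cover counting error only.

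INHBA (ENSSSCG00000035077, chr18:52884631-52905213), which codes for the subunit that pairs with itself to form activin A, had 12.1 FPKM in PEF5, 29.6 in PEF7 and 4.42 in PEF8. It had 2.86, 2.28 and 0.752 FPKM in piPSC5, piPSC7 and piPSC8. Line 8 was lowest in both groups, and the lowest PEF still lay above the highest piPSC. The difference was -2.21 (SE 0.64, adjusted p = 0.0271), from 15.4 ± 12.9 to 1.97 ± 1.09 FPKM (SD, n = 3 each). The call did not hold when 1 of 4 libraries was left out, with an adjusted p of 0.0735 without PEF5, 0.0597 without PEF7, 0.0532 without piPSC7 and 0.0702 without piPSC8. With all libraries kept, it also did not hold by voom (adjusted p = 0.0671) or with no filter on low values (adjusted p = 0.0513).

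TGFB1 (ENSSSCG00000003017, chr6:49330418-49348198) codes for the ligand that is most widely expressed in adult tissues. It had 17.1 FPKM in PEF5, 21.2 in PEF7 and 12.1 in PEF8, while piPSC5, piPSC7 and piPSC8 had 4.83, 15.1 and 5.58. The value in piPSC7 lay above that in PEF8, so the groups overlapped, although each piPSC line was below its own PEF line. The difference of -1.03 (SE 0.42) was not called (adjusted p = 0.0793). With the line as a block the adjusted p was 0.0364, and without piPSC7 the difference was -1.49 (adjusted p = 0.00866) and called. In all, TGFB1 was called in 4 of 16 alternatives. Its adjusted p was 0.218 without piPSC5 and 0.207 without PEF7.

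TGFB3 (ENSSSCG00000002385, chr7:99133511-99162221) differed more between lines than between groups. It had 5.73 FPKM in PEF5 and 5.40 in PEF7, but 0.702 in PEF8. In the piPSCs it had 3.47 FPKM in line 5 and 3.13 in line 7, but 0.0557 in line 8, where 3 fragments were counted. Line 8 was thus low both before and after reprogramming. The plain ratio of PEF to piPSC was 1.65 in line 5, 1.72 in line 7 and 12.6 in line 8, the last with a counting interval from 4.08 to 63.1. As log2 ratios of (FPKM + 1), lines 5, 7 and 8 had -0.59, -0.63 and -0.69. The unpaired difference of -0.64 (SE 0.75, adjusted p = 0.498) was not called. With the line as a block the adjusted p was 0.0596, and without both libraries of line 8 the difference was -0.61 (adjusted p = 0.0825). It was 0.04 (adjusted p = 0.964) without piPSC8, a fit that keeps the low value of PEF8. TGFB3 overlaps IFT43 on the other strand, at 2.48 to 6.06 FPKM, and the library kit does not mark strand, so reads of this pair cannot be told apart where they overlap.

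The make-up of the ligand transcripts differed by line as well. TGFB1, TGFB2 and TGFB3 summed to 26.4 FPKM in PEF5, 40.9 in PEF7 and 33.8 in PEF8, while the piPSCs of these lines had 8.47, 18.5 and 5.88 FPKM. TGFB2 made up 13.5%, 35.1% and 62.2% of the sum in PEF5, PEF7 and PEF8, and 2.12%, 1.77% and 4.17% in piPSC5, piPSC7 and piPSC8. TGFB1 made up most of it in every piPSC line, at 57.0%, 81.3% and 94.9%, with TGFB3 holding 40.9% of it in piPSC5. In PEF8, by contrast, TGFB1 held 35.7% and TGFB2 was the leading ligand.

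Of the 2 receptors, 1 was called. TGFBR2 (ENSSSCG00000011226, chr13:16784365-16876656), the type II receptor to which TGF-beta binds first, had 68.7 FPKM in PEF5, 46.3 in PEF7 and 77.0 in PEF8. It had 6.01, 11.4 and 9.56 FPKM in piPSC5, piPSC7 and piPSC8. Every piPSC library was far below every PEF library, at 9.01 ± 2.76 against 64.0 ± 15.9 FPKM (SD, n = 3 each), a 7.11-fold ratio of means. The difference was -2.71 (SE 0.29, adjusted p = 0.000768). TGFBR1 (ENSSSCG00000005382, chr1:240842698-240918536), the type I receptor kinase, had 25.7 FPKM in PEF5, 19.3 in PEF7 and 11.7 in PEF8, while piPSC5, piPSC7 and piPSC8 had 11.8, 7.33 and 13.5. It was lower in piPSC5 and piPSC7 than in their PEF lines and not in piPSC8, and the groups overlapped. The difference of -0.71 (SE 0.34) was not called (adjusted p = 0.115). Without PEF8 it was -1.0 and called (adjusted p = 0.0416), and without both libraries of line 8 it was -1.17 (adjusted p = 0.0311).

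TGFBR2 was the most abundant of the 10 genes in PEFs, with no overlap of its range with that of TGFBI, the next. In piPSCs TGFBR1, SMAD3 and TGFBR2 had the highest means, and their ranges overlapped, as did those of all neighbours in the order except INHBA and TGFB2, the lowest. The ratio of TGFBR2 to TGFBR1 in FPKM was 2.68 in PEF5, 2.40 in PEF7 and 6.57 in PEF8, while piPSC5, piPSC7 and piPSC8 had 0.508, 1.56 and 0.707. The lowest PEF ratio thus lay above the highest piPSC ratio.

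**Figure D2:**
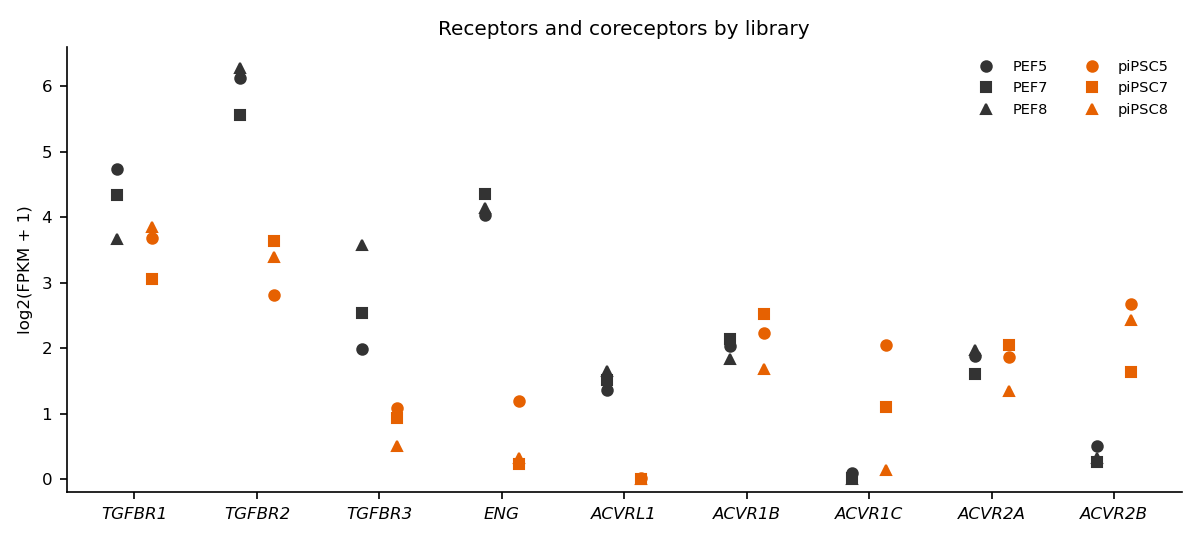
Level of receptor and coreceptor genes as log2(FPKM + 1), with 1 point per library, PEFs in grey and piPSCs in orange. TGFBR2, TGFBR3, ENG and ACVRL1 are lower in every piPSC library than in any PEF library, ACVR2B is higher in every one, and the groups overlap for TGFBR1.

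The promoter of TGFBR2 is shown because, of the 10 genes, only this one has in the 250 bases before its RefSeq start the letters TGANTCA, the site of the AP-1 factors (searched on both strands). These letters occur in 5.267% of 19556 promoters of protein-coding genes. The stretch is chr13:16784120-16784369 on the plus strand of Sscrofa11.1, with the motif in capitals, its first base 44 bases before the start.
TGFBR2 promoter: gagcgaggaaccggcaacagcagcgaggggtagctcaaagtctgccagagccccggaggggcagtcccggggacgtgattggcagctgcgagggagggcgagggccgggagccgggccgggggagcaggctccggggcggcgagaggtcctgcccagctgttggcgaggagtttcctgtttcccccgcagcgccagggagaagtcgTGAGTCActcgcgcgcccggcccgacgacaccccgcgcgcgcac

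Among the genes acting inside the cell, SMAD7 (ENSSSCG00000004507, chr1:98510229-98542315), the inhibitory SMAD that blocks the type I receptor and is itself induced by the pathway, was called lower. It had 16.8 FPKM in PEF5, 14.6 in PEF7 and 8.70 in PEF8, while piPSC5, piPSC7 and piPSC8 had 1.12, 5.96 and 1.45. The groups did not overlap, and piPSC7 kept more of it than the other two. The difference was -2.07 (SE 0.49, adjusted p = 0.0133), from 13.4 ± 4.20 to 2.84 ± 2.70 FPKM (SD, n = 3 each). Its promoter is shown because it alone among the 10 holds GTCTAGAC, the palindrome to which SMAD3 and SMAD4 are known to bind. These letters read the same on both strands and are in 0.164% of the promoters searched, 32 in all. A second SMAD sequence, the CAGA box AGCCAGACA, searched on both strands, was in 0.271% of all promoters and in 0 of the 10. The stretch is chr1:98543925-98544174 on Sscrofa11.1, read on the minus strand, with the palindrome in capitals, its first base 165 bases before the RefSeq start.
SMAD7 promoter: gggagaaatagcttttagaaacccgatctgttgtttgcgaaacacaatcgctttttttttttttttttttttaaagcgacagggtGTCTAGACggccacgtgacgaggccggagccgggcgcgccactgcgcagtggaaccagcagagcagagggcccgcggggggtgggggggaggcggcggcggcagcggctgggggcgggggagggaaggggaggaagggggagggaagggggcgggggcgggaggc
A match of letters is a description of the sequence, and binding was not measured here. For INHBA and TGFB2 the 250 bases searched lie inside the span listed for the gene, not before it.

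SMAD3 (ENSSSCG00000004952, chr1:164998457-165124449), which carries the signal to the nucleus, was lower by less than the 2-fold needed for a call. It had 14.1 FPKM in PEF5, 17.9 in PEF7 and 24.4 in PEF8, while piPSC5, piPSC7 and piPSC8 had 8.13, 7.24 and 12.8. The groups did not overlap, and line 8 was highest in both. The difference was -0.93 (SE 0.28, adjusted p = 0.0297), and the adjusted p ran from 0.0729 to 0.0912 when PEF7, PEF8, piPSC5 or piPSC7 was left out. In 7 of 16 alternatives it was called, among them equal sums (-1.29, adjusted p = 0.0107), voom (-1.01, adjusted p = 0.0274) and leaving out piPSC8 (-1.16, adjusted p = 0.0162). An antisense gene on its span was listed at 0 to 0.442 FPKM, and reads of this pair cannot be told apart either.

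SKIL (ENSSSCG00000011746, chr13:109029856-109059171) codes for SnoN, a repressor that holds SMAD complexes inactive and is also induced by the pathway. It had 10.6 FPKM in PEF5, 8.01 in PEF7 and 10.1 in PEF8, while piPSC5, piPSC7 and piPSC8 had 5.04, 7.20 and 4.03. The groups did not overlap, but in line 7 the change was small, a log2 ratio of -0.14. The difference was -0.74 (SE 0.24, adjusted p = 0.0375), short of 2-fold. With the line as a block the adjusted p was 0.0759, and without line 8 it was 0.166.

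TGFBI (ENSSSCG00000014316, chr2:138191863-138224776), the secreted matrix protein, had 36.7 FPKM in PEF5, 36.7 in PEF7 and 22.1 in PEF8. It had 1.30, 14.7 and 5.45 FPKM in piPSC5, piPSC7 and piPSC8. Every piPSC library lay below every PEF library, and the piPSC lines differed 11.3-fold among themselves. The difference was -2.38 (SE 0.66, adjusted p = 0.023). The call did not hold without PEF5 (adjusted p = 0.0715), without PEF7 (0.0709) or without line 8 (0.062).

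Across the 10 genes, piPSC7 had the highest value of the 3 piPSC lines for 6: TGFB1, TGFB2, TGFBR2, SMAD7, SKIL and TGFBI. PEF8 had the lowest value of the 3 PEF lines for 6, and the highest for 3, TGFB2, TGFBR2 and SMAD3. DES, a muscle intermediate filament, was at 14.2 FPKM in piPSC7, against 0.165 in piPSC5 and 2.51 in piPSC8. The muscle regulators MYOD1 and MYF5 had 0 fragments in all 3 piPSC libraries, and the other 2 of 5 muscle markers were not analysed here. Keratinocyte markers summed to 3.85 FPKM in piPSC7, against 0.19 and 0.225. In piPSC7 this was KRT14 at 3.04 and KRT5 at 0.806 FPKM. TP63, on the same list, had 0 fragments in all 3 piPSC libraries. The part of keratinocytes in the values of piPSC7, or of mouse feeder cells in those of any piPSC line, was not tested.

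Around the 10 genes, 80 other genes of the pathway were listed by role, of which 68 were in the table and 54 passed the filter on low values. In piPSCs, 29 of the 54 were called lower and 2 higher, with a median difference of -1.58. Here and for each role, the shares over all genes tested are 16.7% lower and 20.2% higher, and the median is 0.20. Without line 8, 29 were lower and 3 higher, against 15.8% and 20.1% of all genes in that fit. Where genes outside the rule for named genes appear here, they were picked from these lists after their values were seen.

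**Figure D3:**
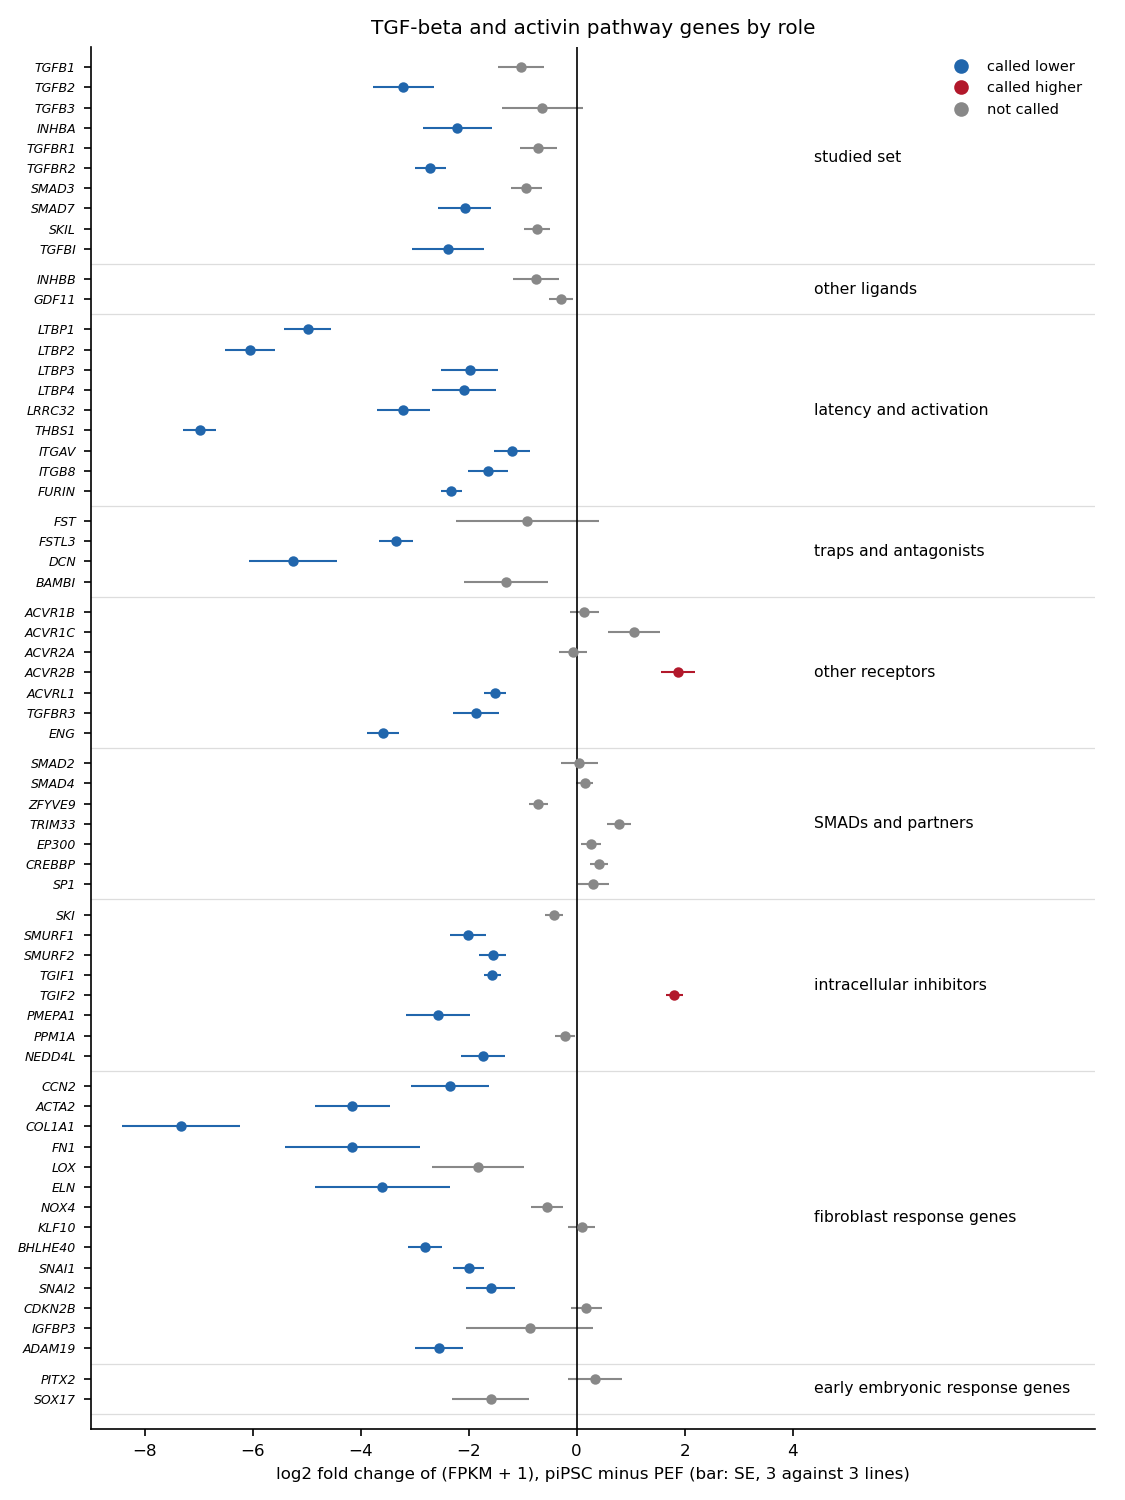
Log2 fold change of (FPKM + 1), piPSC minus PEF, with SE bars, for the 10 genes and other tested genes of the pathway grouped by role, coloured by call. The genes of latency and activation all lie to the left of 0, and the list of SMADs and partners, which does not hold SMAD3 and SMAD7, runs from -0.71 (ZFYVE9) to 0.78 (TRIM33).

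The genes listed under latency and activation were called lower in 9 of 9 tested cases, with a median of -2.32. By voom 7 of the 9 were called, and without line 8 the integrin subunit ITGAV was not (adjusted p = 0.112). THBS1 (ENSSSCG00000004789, chr1:131728784-131746115), coding for thrombospondin-1, an activator of latent TGF-beta, had 1033 FPKM in PEF5, 476 in PEF7 and 788 in PEF8, while piPSC5, piPSC7 and piPSC8 had 4.70, 3.93 and 5.94. The difference was -6.98 (SE 0.30, adjusted p = 0.000101). LTBP2, a matrix protein of the latent TGF-beta binding family, went from 111 ± 43.4 to 0.755 ± 0.977 FPKM (SD, n = 3 each), a difference of -6.05 (SE 0.46, adjusted p = 0.000321). LTBP1, which tethers the latent complex to the matrix, had 188, 92.6 and 292 FPKM in PEF5, PEF7 and PEF8, and 6.37, 4.12 and 3.39 in piPSC5, piPSC7 and piPSC8. Transcripts of the 4 LTBP genes together summed to 351, 241 and 361 FPKM in the PEFs and to 10.9, 6.73 and 4.12 in the piPSCs. In every line the ratio of PEF to piPSC was larger for this sum than for that of the 3 ligands. FURIN, the protease that cleaves the TGF-beta precursor, fell from 27.1 ± 2.44 to 4.66 ± 0.948 FPKM (SD, n = 3 each), with a difference of -2.32 (adjusted p = 0.000362).

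**Figure D4:**
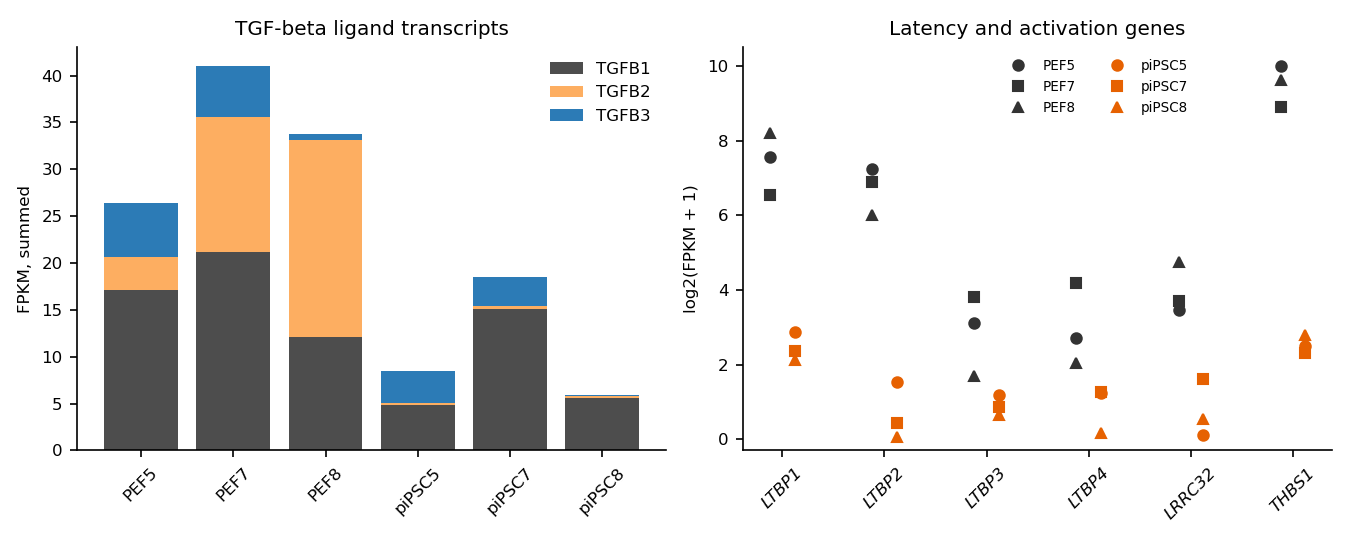
Left, stacked bars of the FPKM of TGFB1, TGFB2 and TGFB3 in each library. Right, log2(FPKM + 1) of 6 genes of latency and activation, with 1 point per library, where every piPSC point lies below every PEF point of the same gene.

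Of 4 extracellular traps and antagonists tested, 2 were called lower. FSTL3, a follistatin-like protein that binds activin, went from 49.5 ± 16.3 to 3.91 ± 1.28 FPKM (SD, n = 3 each; -3.34, adjusted p = 0.000519). DCN (decorin), a matrix proteoglycan able to bind TGF-beta, went from 50.2, 98.8 and 519 FPKM in PEF5, PEF7 and PEF8 to 4.58, 1.65 and 2.27 in the piPSCs (-5.25, adjusted p = 0.00284). Follistatin itself, FST, ran the other way by line, with 3.89, 4.15 and 46.7 FPKM in PEF5, PEF7 and PEF8 and 7.69, 19.9 and 0 in piPSC5, piPSC7 and piPSC8 (-0.91, adjusted p = 0.588). It was above its PEF line in piPSC5 and piPSC7 and below it in piPSC8.

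The other receptors divided in direction, with 3 of 7 called lower and 1 higher. Those lower were the TGF-beta coreceptors ENG (endoglin; -3.59, adjusted p = 0.000414) and TGFBR3 (betaglycan, which presents TGF-beta2; -1.86, adjusted p = 0.0113), and ACVRL1, with 172, 191 and 198 fragments in the PEFs and 1, 0 and 0 in the piPSCs. ACVR2B (ENSSSCG00000011257, chr13:23237464-23267373), a type II receptor for activins, had 0.42 FPKM in PEF5, 0.21 in PEF7 and 0.25 in PEF8, while piPSC5, piPSC7 and piPSC8 had 5.37, 2.11 and 4.41. Every piPSC library was above every PEF library, and the difference was 1.88 (SE 0.31, adjusted p = 0.00353). The ratio of TGFBR2 to ACVR2B in FPKM went from 163, 223 and 311 in PEF5, PEF7 and PEF8 to 1.12, 5.42 and 2.17 in the piPSCs. This ratio sets a gene called lower against the 1 receptor called higher. In PEF5, PEF7 and PEF8, ACVR2B rests on 26, 12 and 13 fragments. ACVR1C, a type I receptor for NODAL, had 7, 1 and 0 fragments in PEF5, PEF7 and PEF8 and 261, 75 and 6 in the piPSCs, so the groups did not overlap. Its difference of 1.06 was not called (adjusted p = 0.105), but it was called by voom (5.36, adjusted p = 0.0403) and without line 8 (1.52, adjusted p = 0.0306). In all, ACVR1C was called in 3 of the 14 alternatives that tested it, and with the line as a block its adjusted p was 0.106. The activin receptors ACVR1B (0.14, adjusted p = 0.671) and ACVR2A (-0.07, adjusted p = 0.842) were not called. ACVR2A, also a type II receptor, had 2.67, 2.06 and 2.93 FPKM in PEF5, PEF7 and PEF8, above ACVR2B in each.

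Among 7 other SMADs and SMAD partners, 0 were called by limma or by voom, and 2 had an unadjusted p under 0.05. SMAD2 was at 4.78 ± 0.316 FPKM before and 5.41 ± 2.93 after reprogramming (SD, n = 3 each), a difference of 0.05 (adjusted p = 0.907), and SMAD4 at 7.48 ± 0.519 and 8.43 ± 0.5 FPKM, a difference of 0.15 (adjusted p = 0.437). The 2 with an unadjusted p under 0.05 were ZFYVE9 (-0.71, adjusted p = 0.0178) and TRIM33 (0.78, adjusted p = 0.0247). Both passed the adjusted threshold and not the fold.

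The inhibitors inside the cell fell in 5 of 8 cases and rose in 1. SMURF1, a ubiquitin ligase acting on receptors and SMADs, went from 11.5 ± 0.835 to 2.28 ± 1.24 FPKM (SD, n = 3 each; -2.01, adjusted p = 0.0033). PMEPA1, a membrane protein that holds SMADs back and is induced by the pathway, had 23.8, 16.3 and 5.44 FPKM in PEF5, PEF7 and PEF8 and 2.81, 1.62 and 0.32 in the piPSCs (-2.57, adjusted p = 0.0119). The related corepressors TGIF1 and TGIF2 moved in opposite directions. TGIF1 went from 41.1 ± 5.74 to 13.2 ± 0.627 FPKM (-1.56, adjusted p = 0.000675). TGIF2 (ENSSSCG00000036002, chr17:39840462-39858155) had 3.6 FPKM in PEF5, 3.06 in PEF7 and 3.25 in PEF8, while piPSC5, piPSC7 and piPSC8 had 14.3, 13.8 and 14 (1.81, SE 0.16, adjusted p = 0.000435). The 3 lines were close to one another in each group, at 3.31 ± 0.273 and 14 ± 0.254 FPKM (SD, n = 3 each).

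Of 15 tested response genes known from fibroblasts, 0 were called higher (also 0 by voom, and 0 at an unadjusted p under 0.05). The list had a median of -2.35, with 10 called lower (9 by voom). Among them COL1A1, a chain of type I collagen, went from 1773 ± 985 to 21.6 ± 31.9 FPKM (SD, n = 3 each; -7.32, adjusted p = 0.00236). LOX, NOX4, KLF10, CDKN2B and IGFBP3 were the 5 not called. IGFBP3 had 38.1, 89.5 and 106 FPKM in PEF5, PEF7 and PEF8, and 72.7, 4.58 and 150 in piPSC5, piPSC7 and piPSC8. Many genes of this list also mark fibroblasts, whose marker list fell as a whole, and the part of that change in them was not tested. Of 8 response genes known from pluripotent or early embryonic cells, 7 were in the table and 2 passed the filter, with 0 calls by limma or voom and 0 at an unadjusted p under 0.05. NODAL, the ligand of early embryos, had at most 0.06 FPKM in the PEFs, and was at 0 in piPSC5 and piPSC8 and at 0.36 FPKM in piPSC7.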

How the data were processed

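RNA-seq of 6 libraries was analysed as the FPKM values per gene that the authors deposited. Per the labels, Bowtie2 2.2.3, HISAT2 2.1.0 and HTSeq 0.6.0 were used on Sscrofa11.1, with roles and annotation release not given in the sources used here. Poly-A libraries were made with a kit that does not mark strand. Values were whole multiples of 1 fragment for all 18007 genes, within 0.0002 fragments plus a share of 5e-08 of the count, which gave fragments per gene.

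Groups were compared unpaired with limma 3.58.1 in R 4.3.3 (lmFit, eBayes with trend) on log2(FPKM + 1) over the 12428 genes whose FPKM averaged 0.5 or more (two-sided, Benjamini-Hochberg adjusted), after testing on simulated data. Exact permutation of 3 against 3 lines cannot go below p = 0.1, so none is given. Equal numbers mark a piPSC line and the fibroblasts it came from, so they pair the libraries. Deviations of same-numbered libraries from their group means correlated at 0.092, 0.095 and 0.080, and the fit with the line as a block is an alternative. Others were scaling, filter, pseudocount, trend, voom on fragments and leaving out each library. Leaving out line 8 was chosen after seeing the data.

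The genes and lists were chosen with earlier results of these data known. In each role list, the 2 called genes with the largest change and any called in the other direction were to be named, and a gene so chosen is not reported here. Promoters were read from the RefSeq genome of Sscrofa11.1, and 9 of the 10 genes overlapped the RefSeq gene of their symbol. The exception was INHBA, of which RefSeq holds partial entries. The entry compared did not overlap, while the entry used for its promoter starts inside the listed span. Of the listed genes, 12 were not analysed here.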

Additional observations from a re-analysis of the deposited data

How the results depend on the processing

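Under 16 alternatives, TGFB2, TGFBR2 and SMAD7 were called lower throughout, INHBA in 10 and TGFBI in 13. Of 352 values for the 22 genes taken by the naming rule, 327 kept their direction and side of the threshold, 9 lost the call, 15 gained one and 1 turned. The turn was TGFB3 without piPSC8, at 0.04, in a range from -1.29 with 1 library left out. Of the 10 genes, 9 were called lower with libraries rescaled to equal sums, 6 with the line as a replicate block (TGFB1 added), and between 3 (without PEF7) and 6 (without PEF8) with 1 library left out. At a 4-fold threshold on ratios of (FPKM + 1), 0 genes were lower in all 3 pairs (TGFB2 missed it in line 5, at -1.96, and TGFBR2 in line 7, at -1.93), and with 1 pair left out 5 to 6 were at least 2-fold lower in the others. The cause of these shifts was not tested. With the line as a block, the calls of the other named genes did not change, beside the adjusted p of SKIL given above. Fragments limit the weakest values most: TGFB3 in piPSC8 rests on 3 fragments and TGFB2 in piPSC5 and piPSC8 on 9 each.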
